A study of Rattus norvegicus with 10 samples.

Results

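Microglia identity and activation genes are the subject here: Cx3cr1, P2ry12, Tmem119 and Csf1r as identity genes, and Trem2, Tyrobp, Aif1, Itgam, Lyz2 and Cd68 as genes of activation and phagocytosis. They were taken by symbol from the deposited table that sets OL miR-145 against OL miR-ctl, in which 14561 genes carried a symbol. Each of the 10 symbols matched a single gene ID, so the members are 10 of the 23487 genes counted.

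Microglia are the resident macrophages of the brain, descend from yolk sac progenitors and depend on signalling through the receptor Csf1r, whose ligands are Csf1 and Il34. At rest they survey the tissue and express the fractalkine receptor Cx3cr1, the purinergic receptor P2ry12 and the membrane protein Tmem119. On activation they typically lower these genes and raise genes of phagocytosis and inflammation, and in white matter the receptor Trem2 with its adaptor Tyrobp serves the uptake of myelin lipids and debris.

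The study asked how miR-145-5p acts in oligodendrocytes (OLs) and their progenitors (OPCs), cultured from the cortices of newborn Sprague-Dawley rats by shaking OPCs off mixed glial cultures and removing adherent cells. OLs in differentiation medium with T3 and CNTF received scrambled mimic (OL miR-ctl), miR-145-5p mimic (OL miR-145), or miR-145-5p and miR-219 mimics together (OL miR-145+miR-219), and their RNA was taken 5 days later. OPCs in proliferation medium with FGF2 and PDGFAA received scrambled inhibitor (OPC anti-miR-ctl) or miR-145-5p inhibitor (OPC anti-miR-145), and their RNA was taken 24 h later. Every oligo was used at 30 nM, and each of the 5 groups has 2 libraries, 10 in all. The cultures were enriched without a sort, so microglia carried over from the mixed cultures can contribute RNA. A treatment tag of both OL miR-145 libraries also names miR-219, whereas their titles name miR-145 alone, and they are treated as miR-145. The mimic is stated to be identical to mature miR-145-5p, which is shown here with its seed (bases 2 to 8) in capitals because its mimic or its inhibitor sets apart the groups of 3 comparisons. It is followed by rat miR-219a-5p, the main mature arm of that name, whose identity with the second mimic is not stated in the sources used here. Both are credited to RefSeq (GRCr8, chr18:57370033-57370055 and chr3:33516561-33516581, minus strand), and their seeds differ.
miR-145-5p: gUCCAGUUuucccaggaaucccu
miR-219a-5p: uGAUUGUCcaaacgcaauucu

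Counts assigned to genes summed to between 33505706 and 42684206 per library. Levels are given in CPM, counts scaled to a common library total after TMM over the 10 libraries, with the SD over 2 libraries. Since no gene length was used, levels are compared between libraries and not between genes. The lowest count of a member in any library was 75, so each member was measurable in each library and passed the filter on low counts in each comparison. In bulk RNA, fewer microglia and less RNA of a gene per microglial cell cannot be told apart. The source of each transcript was not resolved either. The authors call every N a biological replicate and define N for primary culture by the individual mouse, whereas these libraries, numbered N1 and N2, came from rats, and no label states that the 2 of a group were separate cultures. Where they were not, p-values measure only the spread between these libraries.

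Cx3cr1, the receptor for fractalkine, was at 4.27 and 2.82 CPM in the OPC anti-miR-ctl libraries and at 12.2 and 13.5 CPM in OPC anti-miR-145. In OLs it was at 4.95 and 5.00 CPM with miR-ctl, 12.4 and 24.8 CPM with miR-145, and 12.8 and 15.4 CPM with miR-145+miR-219. Both control groups were thus low, and their libraries lay below those of the 3 groups given miR-145 mimic or inhibitor. Those 3 groups overlapped as neighbours in the order of means, from 18.6 ± 8.82 CPM in OL miR-145 through 14.1 ± 1.88 in OL miR-145+miR-219 to 12.8 ± 0.891 in OPC anti-miR-145 (SD, n = 2).

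P2ry12, which senses nucleotides and steers microglial processes, was at 2.12 and 2.05 CPM in OPC anti-miR-ctl and 4.42 and 4.21 CPM in OPC anti-miR-145. OLs held 2.28 and 2.54 CPM with miR-ctl, 2.79 and 6.60 CPM with miR-145, and 2.92 and 3.88 CPM with miR-145+miR-219. Its control libraries were again the lowest, with OPC anti-miR-ctl below OL miR-ctl and the wide OL miR-145 group spanning the next 2 groups.

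Tmem119, a membrane protein that separates microglia from other macrophages, had another order. It was at 12.3 and 11.5 CPM in OPC anti-miR-ctl, at 10.7 and 9.54 CPM in OPC anti-miR-145, and between 3.04 and 8.09 CPM in the OL libraries. The OPC libraries lay above the OL libraries, and the 3 OL groups overlapped.

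Csf1r, the receptor tyrosine kinase on which microglial survival depends, was at 319.9 and 282 CPM in OPC anti-miR-ctl and at 247 and 211 CPM in OPC anti-miR-145. In OLs it was at 53.9 and 84.8 CPM with miR-ctl, 80.5 and 196 CPM with miR-145, and 76.2 and 132 CPM with miR-145+miR-219. The OPC groups did not overlap with each other or with OLs, whereas the 3 OL groups overlapped, with OL miR-145 replicate 2 the highest OL library.

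**Figure D1:**
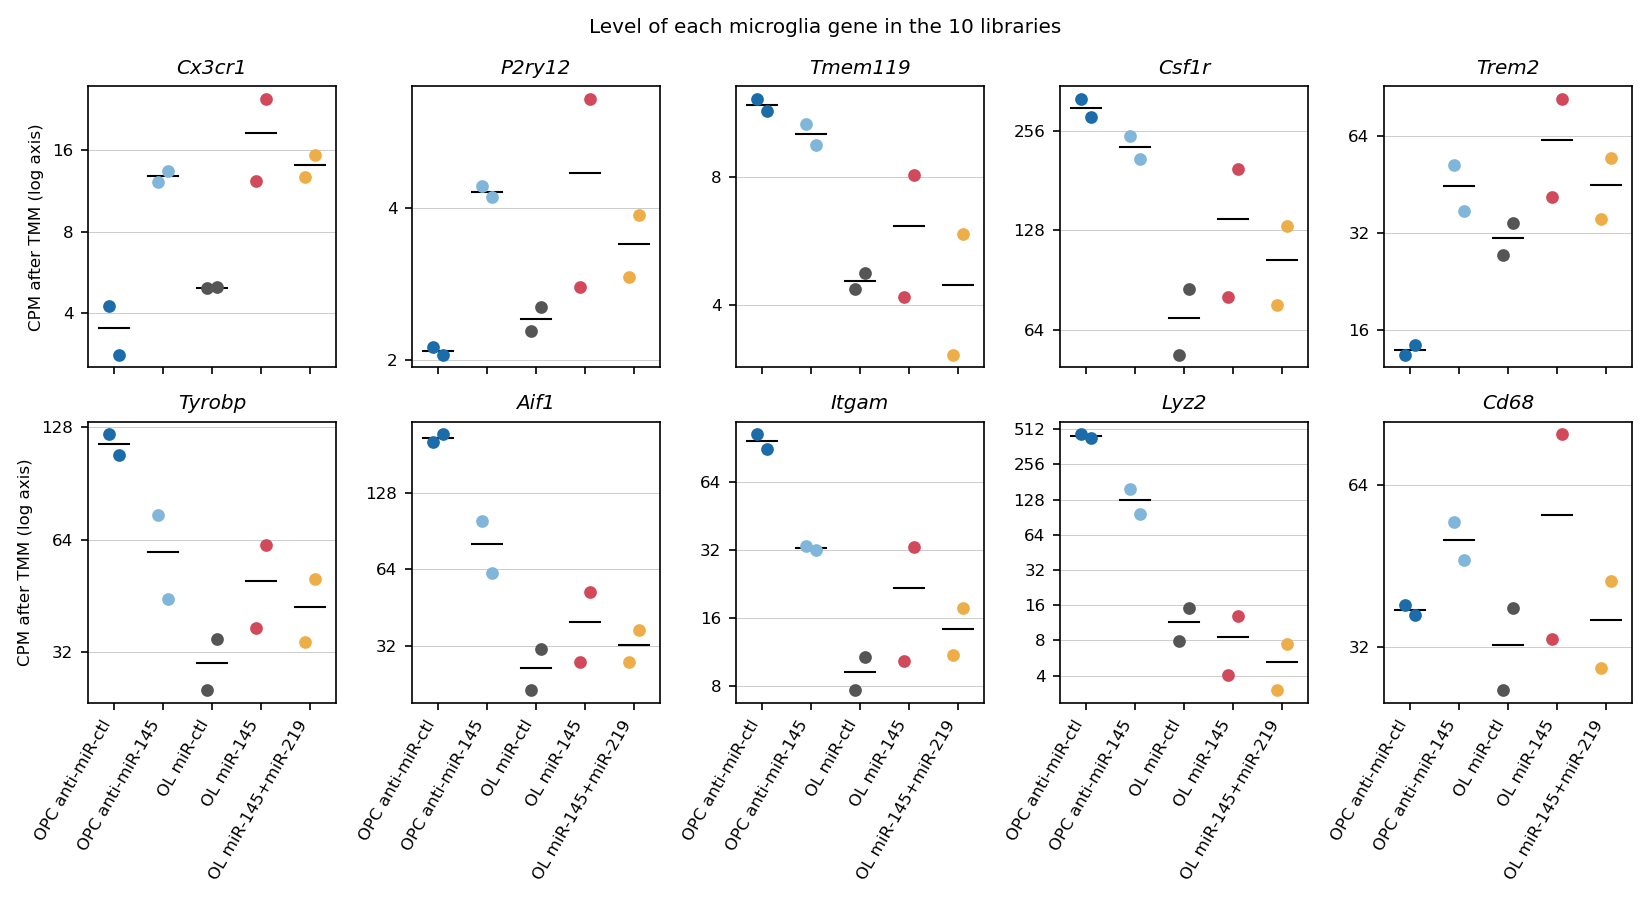
Level of each of the 10 microglia genes, in CPM after TMM on log axes with a range of its own per panel, in the 5 groups; points are the 2 libraries (replicate 1 left, replicate 2 right) and lines their mean. Lyz2 spans from 2.996 CPM in an OL miR-145+miR-219 library to 461 CPM in an OPC anti-miR-ctl library, while Cx3cr1, P2ry12 and Trem2 are lowest in OPC anti-miR-ctl.

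Trem2, a lipid-sensing receptor of phagocytes, was at 13.4 and 14.4 CPM in OPC anti-miR-ctl and at 51.8 and 37.4 CPM in OPC anti-miR-145. The OL libraries held 27.3 and 34.4 CPM with miR-ctl, 41.2 and 83.3 CPM with miR-145, and 35.3 and 54.6 CPM with miR-145+miR-219. OPC anti-miR-ctl was the lowest group and OL miR-ctl the next, neither overlapping with its neighbour, and the remaining 3 groups overlapped.

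Tyrobp, the adaptor that carries the Trem2 signal inward, did not share that order. It was at 122 and 108 CPM in OPC anti-miR-ctl, at 74.4 and 44.5 CPM in OPC anti-miR-145, and at 25.3 and 34.7 CPM in OL miR-ctl. With mimics it was at 37.2 and 62.0 CPM (miR-145) and at 34.0 and 50.3 CPM (miR-145+miR-219). OPC anti-miR-ctl was the highest group and stood apart, and each later neighbour in the order overlapped with the next.

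Aif1, which encodes the actin-binding protein Iba1, was at 204 and 219 CPM in OPC anti-miR-ctl, at 99.5 and 62.2 CPM in OPC anti-miR-145, and between 21.3 and 52.0 CPM in OLs. Itgam, the CD11b chain of complement receptor 3, was at 104 and 89.6 CPM, at 33.5 and 31.9 CPM, and between 7.68 and 33.1 CPM in the same sets of libraries. For both genes OPC anti-miR-ctl stood above every other group. The 6 OL libraries lay below the OPC libraries for Aif1, while for Itgam OL miR-145 replicate 2 reached the OPC anti-miR-145 libraries.

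Lyz2, the lysozyme of macrophages and granulocytes, was at 461 and 431 CPM in OPC anti-miR-ctl and at 157 and 95.4 CPM in OPC anti-miR-145. OLs held 7.88 and 15.3 CPM with miR-ctl, 4.08 and 13.04 CPM with miR-145, and 2.996 and 7.44 CPM with miR-145+miR-219. It was far higher in the OPC libraries than in the OL libraries, and the 3 OL groups overlapped with their neighbours in the order. Its values are uncertain in that RefSeq places near copies of the gene beside it (Lyc2 and RGD1306474), between which reads can be split. Cd68, a lysosomal glycoprotein of macrophages, was at 38.3 and 36.6 CPM in OPC anti-miR-ctl and at 54.5 and 46.4 CPM in OPC anti-miR-145, and it ran between 26.5 and 79.4 CPM in OLs, on both sides of the OPC libraries.

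Inhibition of miR-145-5p in OPCs, compared with its control at 24 h, moved the members in opposite directions. Tested by the quasi-likelihood method of edgeR and adjusted after Benjamini-Hochberg over 15496 genes (called at an adjusted p under 0.05), 4 of 10 members were called higher and 5 lower, against 12.1% and 16.0% of all genes tested. Their median log2 fold change was -0.33, beside 0.0045 over all genes. Cx3cr1 rose by 1.83 (standard error 0.19, adjusted p = 0.000678), Trem2 by 1.67 (0.17, adjusted p = 0.00054), P2ry12 by 1.03 (0.18, adjusted p = 0.00567) and Cd68 by 0.42 (0.11, adjusted p = 0.0299). Lyz2 fell by 1.83 on the log2 scale (0.22, adjusted p = 0.00121), Itgam by 1.58 (0.10, adjusted p = 0.000112) and Aif1 by 1.40 (0.21, adjusted p = 0.0031). Smaller falls were called for Tyrobp (log2 fold change -0.96, standard error 0.23, adjusted p = 0.0197) and Csf1r (-0.41, 0.11, adjusted p = 0.0364), and Tmem119 was not called at -0.25 (0.12, adjusted p = 0.167).

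The identity genes therefore did not move as a set, with 2 higher, 1 lower and 1 not called, and neither did the activation and phagocyte genes, with 2 higher and 4 lower. Trem2 and Tyrobp, receptor and adaptor of a single complex, went opposite ways. With all 5 groups in 1 fit, 4 members remained past the threshold (Cx3cr1, Trem2, Aif1 and Itgam), against 2657 of 15496 genes. P2ry12, Csf1r, Tyrobp, Lyz2 and Cd68 did not pass. Csf1r lost its call without OPC anti-miR-ctl replicate 1, and Cd68 lost its call without either OPC anti-miR-ctl library. Tmem119 gained a call at -0.34 without OPC anti-miR-145 replicate 1.

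**Figure D2:**
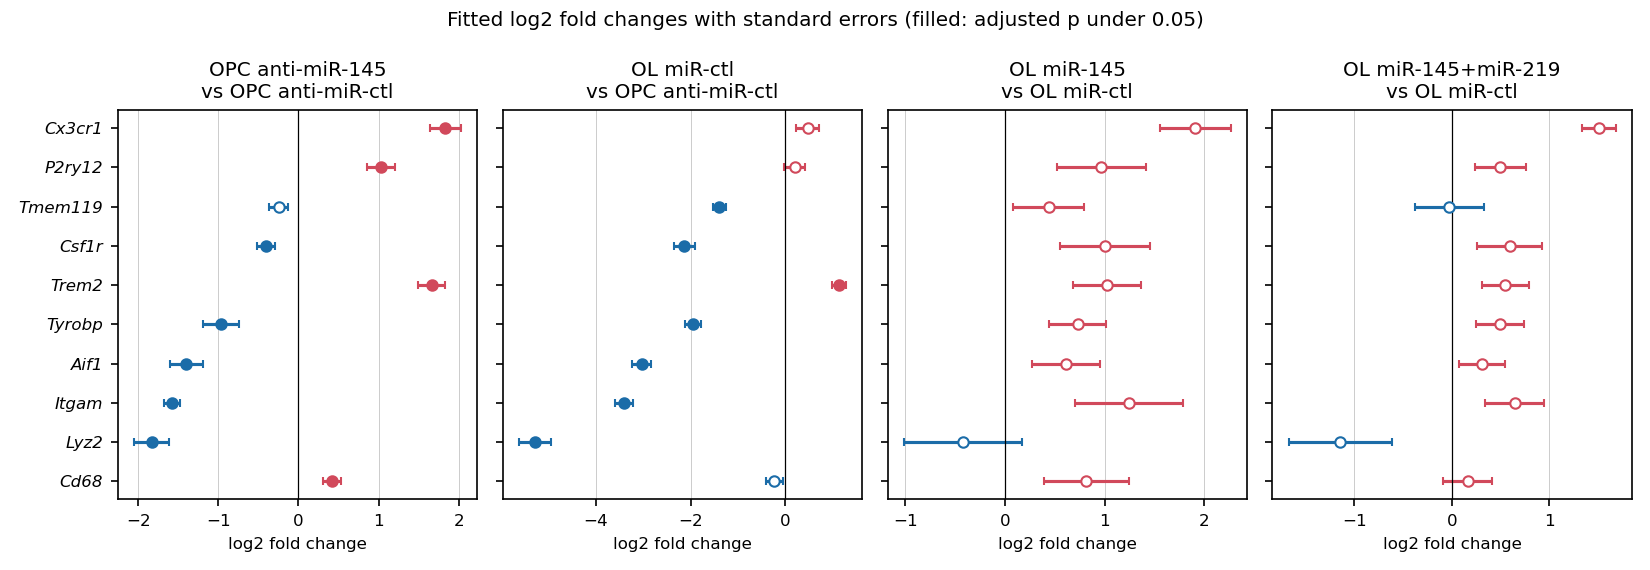
Fitted log2 fold change of each microglia gene (points) with its standard error (bars) in 4 comparisons of 2 against 2 libraries, on axes with a range of their own; filled points have an edgeR adjusted p under 0.05. In OPC anti-miR-145 the fold changes spread from -1.83 (Lyz2) to 1.83 (Cx3cr1). In OL miR-145 they run from -0.42 to 1.91, with no call in this fit without a replicate block.

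In a single uniform population, a change in the number of cells alone leaves the ratio between its genes as it was. Ratios of counts were therefore taken within each library, with Csf1r as the denominator. A change in the mix of cells that express these genes can move a ratio too, and the mix was not measured. Whether each gene was transcribed in microglia alone in these cultures was not tested, and the ratios are given as a description without a test. The ratio of Lyz2 to Csf1r was 1.44 and 1.53 in OPC anti-miR-ctl and 0.637 and 0.453 in OPC anti-miR-145. It was lower in OLs, at 0.146 and 0.180 with miR-ctl, 0.0507 and 0.0664 with miR-145, and 0.0393 and 0.0564 with miR-145+miR-219. The OPC groups did not overlap with each other, and both mimic groups lay below OL miR-ctl.

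The ratio of Itgam to Csf1r set OPC anti-miR-ctl, at 0.324 and 0.318, apart from the other 8 libraries, which lay between 0.127 and 0.168. For Aif1 the ratio was 0.638 and 0.778 in OPC anti-miR-ctl and between 0.265 and 0.404 in the other 8 libraries. OPC anti-miR-145 thus sat within the range of the OL libraries for Itgam, and for Aif1 its replicate 1 lay just above that range, at 0.404 beside a highest OL ratio of 0.395.

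Cx3cr1 to Csf1r ran the other way, at 0.0133 and 0.0100 in OPC anti-miR-ctl, 0.0495 and 0.0639 in OPC anti-miR-145, and 0.0918 and 0.0589 in OL miR-ctl. Both mimic groups were higher still, at 0.154 and 0.126 with miR-145 and 0.168 and 0.117 with miR-145+miR-219. P2ry12 to Csf1r was 0.00664 and 0.00729 in OPC anti-miR-ctl, 0.0179 and 0.0200 in OPC anti-miR-145, and between 0.0294 and 0.0424 in OLs. The 3 OL groups overlapped for P2ry12 and not for Cx3cr1, for which OL miR-ctl lay below both mimic groups.

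Trem2 to Csf1r was 0.0420 and 0.0512 in OPC anti-miR-ctl, 0.210 and 0.177 in OPC anti-miR-145, and between 0.405 and 0.512 in OLs. Cd68 to Csf1r followed the same order of sets, at 0.1198 and 0.130, at 0.221 and 0.220, and between 0.322 and 0.493. Tyrobp to Csf1r differed less, at 0.382 and 0.383 in OPC anti-miR-ctl, 0.301 and 0.211 in OPC anti-miR-145, and between 0.316 and 0.470 in OLs. Trem2 over Tyrobp was 0.110 and 0.134 in OPC anti-miR-ctl, 0.696 and 0.842 in OPC anti-miR-145, and between 0.989 and 1.34 in OLs, so the balance of receptor to adaptor separated the 3 sets of libraries. Tmem119 to Csf1r, at 0.0384 and 0.0407 and then at 0.0433 and 0.0453, changed little between the OPC groups and ran from 0.0400 to 0.0807 in OLs.

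**Figure D3:**
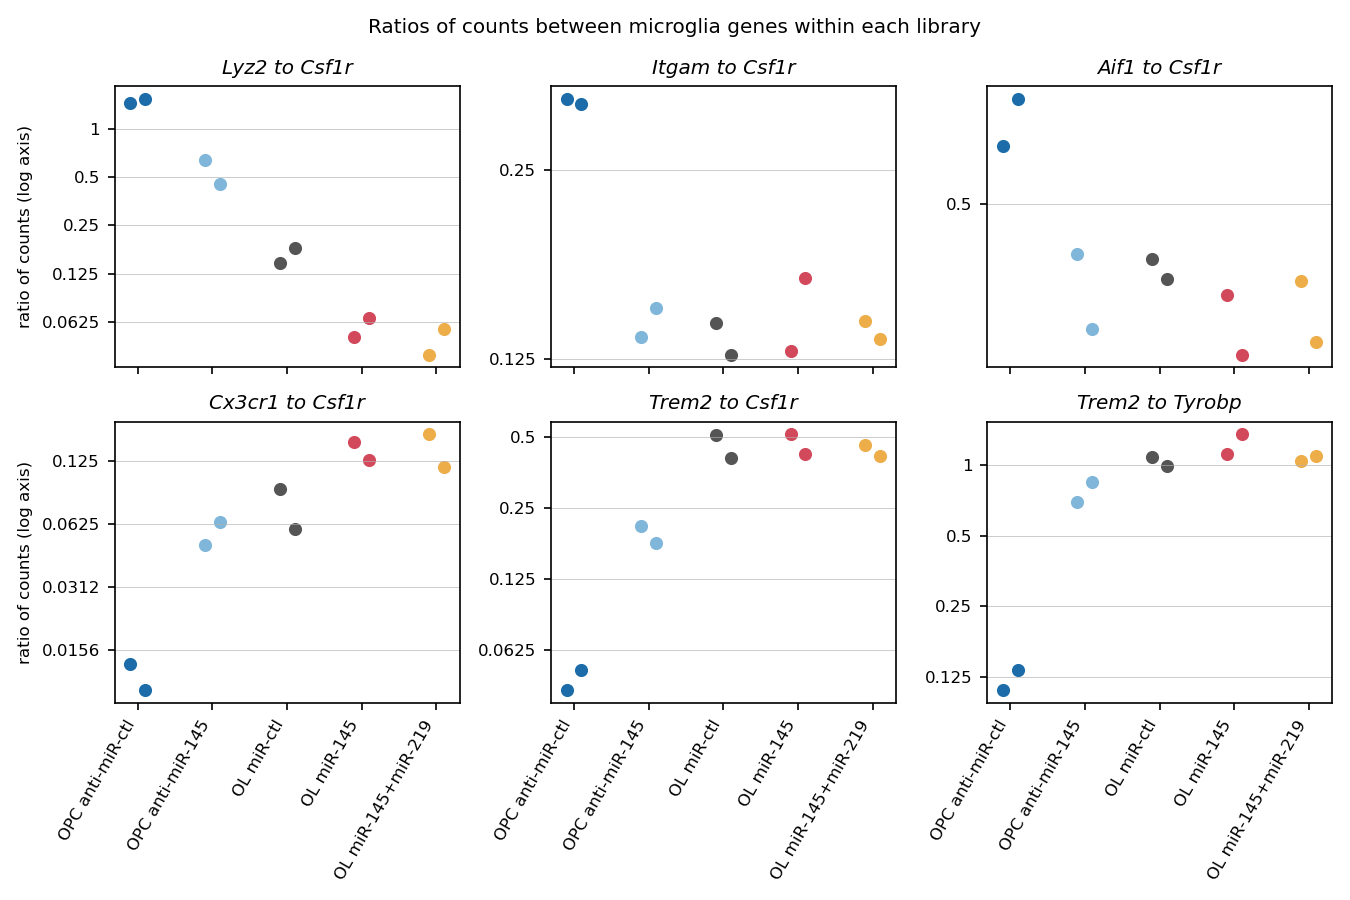
Ratio of the counts of 2 microglia genes within each of the 10 libraries, by group, on log axes with a range of their own per panel (replicate 1 left, replicate 2 right). Lyz2 to Csf1r falls from 1.53 in an OPC anti-miR-ctl library to 0.0393 in an OL miR-145+miR-219 library, and Trem2 to Tyrobp runs from 0.110 to 1.34.

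Control OLs compared with control OPCs differ in stage, time after transfection, medium and control oligo, which cannot be told apart. Of the members, 1 was called higher and 6 lower, against 28.8% and 28.7% of 15721 genes tested. The members' median log2 fold change was -1.67, beside 0.0072 over all genes. Trem2 was higher by 1.13 (standard error 0.14, adjusted p = 0.00203). Lower were Lyz2 at -5.29 (0.34, adjusted p = 0.000217), Itgam at -3.41 (0.19, adjusted p = 0.000152) and Aif1 at -3.04 (0.19, adjusted p = 0.000214). Csf1r, Tyrobp and Tmem119 were lower at -2.13, -1.95 and -1.40, with adjusted p-values of 0.0012, 0.000601 and 0.000904. No call was made for Cx3cr1 at 0.47, P2ry12 at 0.19 or Cd68 at -0.23. Without OL miR-ctl replicate 2 Cd68 was called at -0.50, and without OL miR-ctl replicate 1 it stood at 0.01 and was not called. This comparison shares the OPC anti-miR-ctl libraries with the inhibitor comparison, so their directions are not independent.

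The miR-145 mimic in OLs, 5 days after transfection, gave positive log2 fold changes for 9 of 10 members, none of which edgeR called (0 of 10, against 0% of 15461 genes). Their median was 0.89, beside -0.011 over all genes. At an unadjusted p under 0.05, 3 members were higher (Cx3cr1, Trem2 and Tyrobp), against 8.99% of genes tested, and both libraries lay above both controls for 4 members (those 3 and P2ry12), against 22.9%. DESeq2 called 1 member, Cx3cr1, against 4.20% of genes. Cx3cr1 stood at 1.91 on the log2 scale (edgeR adjusted p = 0.164, standard error 0.35), which became 1.32 without OL miR-145 replicate 2 and 2.33 without OL miR-145 replicate 1. Itgam was at 1.24 (0.54), Trem2 at 1.02 (0.34) and Csf1r at 1.01 (0.45). Lyz2 was the exception in sign, at -0.42 (0.59), and turned, in fits that leave unequal replicate numbers in the groups, to 0.18 without OL miR-145 replicate 1 and to 0.13 without OL miR-ctl replicate 2. Without OL miR-145 replicate 2, when its replicate 1 stands against both controls, Csf1r was at 0.22, Itgam at 0.17, Trem2 at 0.42, Cd68 at 0.05 and Tmem119 at -0.12. With the replicate number as a block, edgeR called 9 of 10 members, against 2272 of 15461 genes. Lyz2 was lower, Tmem119 was not called and the others were higher. Lyz2 differed by -0.95 and -0.23 within numbers 1 and 2. The numbers are not stated to mark shared cultures.

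With miR-219 added to miR-145, edgeR again called 0 of 10 members against OL miR-ctl, as it did 0% of 15436 genes, and DESeq2 called 1, Cx3cr1, against 0.687%. The members' median log2 fold change was 0.50, beside 0.0014 over all genes. A single member passed an unadjusted p of 0.05, Cx3cr1 on the higher side, against 3.96% of genes. It stood at 1.51 on the log2 scale (edgeR adjusted p = 0.777, standard error 0.17), and it ranged from 1.36 to 1.64 with each library left out. Both libraries lay above both controls for 4 members (Cx3cr1, P2ry12, Trem2 and Itgam), against 17.2% of genes, and below both controls for 1, Lyz2, against 19.5%. Lyz2 was at -1.14 (0.53, adjusted p = 0.814). With the replicate number as a block, edgeR called 2 members, Cx3cr1 higher and Lyz2 lower, against 132 of 15436 genes. The OL miR-ctl libraries serve in both mimic comparisons, so a direction seen in both is not seen in independent data.

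Set against miR-145 alone, miR-145+miR-219 gave negative log2 fold changes for 10 of 10 members, from -0.74 for Lyz2 to -0.25 for Tyrobp, with a median of -0.48 beside -0.0028 over all genes. None passed: edgeR called 0% of 15501 genes, DESeq2 called 0 members against 0.0581% of genes, and 0 members had an unadjusted p under 0.05. The libraries of the groups overlapped for each member. Without OL miR-145 replicate 2 the sign turned for 10 of 10 members, in a fit that sets both miR-145+miR-219 libraries against replicate 1 of miR-145 alone.

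Within the OL groups the replicate numbers carried a difference of their own. Replicate 2 was above replicate 1 for 10 of 10 members in each OL group, with a median log2 difference of 0.47 in OL miR-ctl, 1.13 in OL miR-145 and 0.60 in OL miR-145+miR-219. Over 13337 genes with a mean of at least 1 CPM these medians were -0.0058, -0.022 and -0.0013. In OPC anti-miR-ctl replicate 2 was above replicate 1 for 2 members, and in OPC anti-miR-145 for 1.

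Markers of other cell types were followed in the same OL libraries. At an unadjusted p under 0.05, 1390 of 15461 genes (8.99%) were higher in OL miR-145 than in OL miR-ctl, and 677 were lower. Astrocyte markers, with the largest part of their sum from Gfap, had positive log2 fold changes in OL miR-145 for 8 of 8 genes (median 0.87), of which 0 were called by edgeR and 6 were higher at an unadjusted p under 0.05. Their summed level was 14054 and 9537 CPM in OL miR-145, 11623 and 6948 CPM in OL miR-145+miR-219, and 6668 and 5716 CPM in OL miR-ctl, with none of the 8 at 0. Astrocyte sums were higher in replicate 1 of each OL group, the reverse of the microglia genes. Oligodendrocyte markers, with 0 edgeR calls in OL miR-145 (1 lower at an unadjusted p under 0.05) and the largest part from Mbp, summed to 15479 and 24832 CPM in OL miR-145, 19262 and 34052 CPM in OL miR-145+miR-219, and 16861 and 30949.9 CPM in OL miR-ctl, higher in replicate 2 of each group. OPC markers had negative log2 fold changes in OL miR-145 for 5 of 6 genes (median -0.49), with 0 edgeR calls and 4 lower at an unadjusted p under 0.05, Sox10, Gpr17, Cspg4 and Olig2. Of these, Gpr17 (3.74) and Sox10 (0.54) were called higher in OL miR-ctl than in OPC anti-miR-ctl, so the listed OPC markers do not mark progenitors alone. Their sum, with the largest part from Ptprz1, was 2597 and 2382 CPM in OL miR-145, 2758 and 2363 CPM in OL miR-145+miR-219, and 3067 and 2397 CPM in OL miR-ctl, with none of the 6 at 0. Fibroblast and mural markers, with the largest part from Tagln, had positive values for 4 of 4 tested (0 called by edgeR, 4 at an unadjusted p under 0.05), and summed to 47.5 and 55.4 CPM in OL miR-145, 57.7 and 44.5 CPM in OL miR-145+miR-219, and 30.6 and 20.2 CPM in OL miR-ctl. Of the 5 genes summed, Dcn was at 0 in replicate 1 of OL miR-ctl and of OL miR-145+miR-219. Markers of border macrophages, with the largest part from the scavenger receptor Stab1, summed to 70.2 and 222 CPM, 78.1 and 184 CPM, and 122 and 179 CPM in the same order of groups, higher in replicate 2 as the members were, with Cd74 at 0 in OL miR-145+miR-219 replicate 2. None of the 6 was called by edgeR in either mimic comparison with OL miR-ctl, and 2 of 6, Ms4a7 and Cd74, were lower at an unadjusted p under 0.05 in each. Endothelial markers had a lower sum in the mimic libraries, carried by Kdr, at 9.83 and 6.32 CPM, 9.13 and 8.34 CPM, and 20.6 and 15.0 CPM, with Tie1 at 0 in OL miR-145 replicate 1. Of the 3 tested in OL miR-145, Cdh5 (log2 fold change 2.27) and Flt1 (0.44) had the opposite sign to Kdr (-1.27), and none was called by edgeR (1 higher and 1 lower at an unadjusted p under 0.05). The part of these cells in the members' values was not tested.

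Related lists were followed in OPC anti-miR-145 compared with its control, where 12.1% of all genes tested were called higher and 16.0% lower (median log2 fold change 0.0045). Of 13 other homeostatic genes of microglia, 6 rose and 4 fell (median 0.095). The orphan receptor Gpr34 rose by 3.66 on the log2 scale (standard error 0.26) and the fructose transporter Slc2a5 by 2.11 (0.20), whereas Csf3r, the receptor for granulocyte colony-stimulating factor, fell by 1.14 (0.12) and Selplg, a selectin ligand, by 1.09 (0.16). Gpr34 was at 0.669 and 0.383 CPM in OPC anti-miR-ctl and 6.56 and 7.20 CPM in OPC anti-miR-145, close to the OL miR-ctl libraries at 4.59 and 6.25 CPM. In OL miR-145, 11 of 13 had positive log2 fold changes, with a median of 0.57 and 0 edgeR calls (7 at an unadjusted p under 0.05, of which 6 were higher, where 8.99% of all genes were higher at that p). The list's sum, with the largest part from Cst3, was 7949 and 4758 CPM in OL miR-145 and 3938 and 3777 CPM in OL miR-ctl. It was 6371 and 4411 CPM in OL miR-145+miR-219. Replicate 1 was thus the higher in each OL group, the reverse of the members. Which cells made these transcripts was not tested.

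Transcription factors of the myeloid lineage mostly fell in OPC anti-miR-145, 6 of 10, while 2 rose. Spi1, which encodes PU.1, the master regulator of the lineage, fell by 1.44 (0.19), Ikzf1 by 1.58 (0.14) and the inflammatory factor Cebpb by 1.45 (0.14). Irf8, a partner of PU.1 in microglial development, rose by 1.26 (0.15). Spi1 was at 89.2 and 78.2 CPM in the control and at 37.2 and 25.1 CPM with the inhibitor, and Irf8 was at 11.8 and 9.88 CPM and at 28.9 and 23.6 CPM. The libraries of the groups overlapped for neither factor.

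Among signalling partners of Trem2, Tyrobp and Csf1r, 9 of 12 genes fell and 0 rose. Those that fell included Siglec5, an inhibitory receptor for sialic acid (-2.65, standard error 0.18), the phosphoinositide kinase Pik3cg (-1.70, 0.14) and the exchange factor Vav1 (-1.70, 0.15). Integrin and pan-leukocyte genes fell in 13 of 15 cases, with the kinase Lyn (-1.47, 0.11) and the oxidase subunit Cybb (-1.13, 0.09), and the lysosomal protease Ctss rose by 0.72 (0.13). Among the ligands of the member receptors, Clu and Apoe, lipoproteins that Trem2 binds, rose by 0.97 (0.09) and 0.98 (0.15), and Csf1 fell by 0.42 (0.09). Tgfb1, a cytokine that maintains microglial identity and was listed with them though its receptor is not a member, fell by 1.06 (0.18). Of the 6 genes in this list, Il34 did not pass the filter on low counts in that comparison.

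Genes that microglia raise around lipid and injury were higher in 5 of 15 cases and lower in 5 (median 0.24), beside 12.1% and 16.0% of all genes. The receptor kinase Axl (1.92, standard error 0.09), the growth factor Igf1 (1.73, 0.15) and the tetraspanin Cd9 (0.63, 0.09) rose. The chemokines Ccl4 (-3.29, 0.15) and Ccl3 (-3.02, 0.18) and osteopontin, Spp1 (-2.69, 0.19), fell. Ccl3 was at 130.1 and 129 CPM in OPC anti-miR-ctl, 19.3 and 12.97 CPM in OPC anti-miR-145 and between 2.74 and 7.76 CPM in OLs. Igf1 was at 3.85 and 3.15 CPM, at 11.1 and 12.4 CPM, and between 18.1 and 85.9 CPM, so inhibitor-treated OPCs lay between control OPCs and OLs for both. Other called genes did not all share that order. Compared with OPC anti-miR-ctl, Spp1 was at -2.69 in OPC anti-miR-145 and -1.91 in OL miR-ctl. On the same footing Lgals3 was at -0.61 and 2.03 and Lpl at 0.65 and 0.20, whereas Axl, at 1.92 and 2.27, kept the order.

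Border and peripheral macrophage genes went up in OPC anti-miR-145 in 4 of 6 cases and down in 0, with the hyaluronan receptor Lyve1 at 3.81 (standard error 0.22), the platelet factor Pf4 at 2.57 (0.18) and Stab1 at 1.59 (0.15). Summed, they were at 51.7 and 45.0 CPM in OPC anti-miR-ctl and at 155 and 134 CPM in OPC anti-miR-145, with the largest part from Stab1 and none of the 6 at 0. The genes of granulocytes and lymphocytes that could be matched, S100a8 and Cd79b, fell by 2.30 (0.68) and 1.30 (0.20), from a sum of 6.42 and 5.28 CPM to 2.64 and 2.09 CPM. In OLs their sum was at most 0.144 CPM per library.

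Interferon-stimulated genes fell in 9 of 9 cases in OPC anti-miR-145, with Usp18 at -3.89 (standard error 0.10), Isg15 at -3.64 (0.09) and Oasl at -3.59 (0.12). Their summed level, with the largest part over the 10 libraries from Irf7, was 958 and 894 CPM in OPC anti-miR-ctl, 143 and 149.7 CPM in OPC anti-miR-145, and between 9.23 and 13.7 CPM in OLs. Proliferation genes fell in 6 of 6 cases, with Aurkb at -1.50 (0.08), Cdk1 at -1.49 (0.09) and Ccnb1 at -1.34 (0.09). Among markers of the other cell types, 1 of 7 astrocyte markers rose (Gfap by 2.53, 0.13) and 3 fell, 3 of 5 neuron markers rose, 1 of 4 endothelial markers fell (Flt1 by 3.56, 0.19), and 0 of 3 fibroblast and mural markers passed by edgeR (1 at an unadjusted p under 0.05). OPC markers rose in 3 of 6 cases (Pdgfra, Sox10 and Olig2) and fell in 1 (Cspg4), and OL markers rose in 1 of 8 and fell in 2. Astrocyte markers summed to 756 and 736 CPM in the control and 470.3 and 507 CPM with the inhibitor, where Gjb6 was at 0 in replicate 1 of both groups. That sum fell although Gfap rose, and the 3 markers called lower were Slc1a3 (-1.06), S100b (-0.85) and Aldoc (-0.29). Endothelial markers summed to 11.6 and 11.1 CPM in the control and 2.34 and 2.23 CPM with the inhibitor. Whether these changes bore on the microglia genes was not tested.

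Between control OPCs and control OLs, where 28.8% of all genes were called higher and 28.7% lower, the same lists were counted. Integrin and pan-leukocyte genes were lower in OLs in 15 of 15 cases, myeloid transcription factors in 9 of 10, signalling genes in 9 of 12, and interferon-stimulated genes in 9 of 9. Other homeostatic genes were higher in 7 of 13 and lower in 4, lipid and injury genes higher in 9 of 15 and lower in 4, and border macrophage genes higher in 5 of 6. Astrocyte markers were called higher (Gfap by 9.12) except Slc1a3 (0.024), and OL markers (Mbp by 5.18) except Mog (0.46). Each proliferation gene was called lower (Cdk1 at -3.80), as were S100a8 and Cd79b. OPC, neuron and endothelial markers and ligands were called both ways. Pdgfrb and Tagln were higher among fibroblast and mural markers, and Col1a1 was not called. Whether these bore on the members was not tested.

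Genes with a pattern close to that of the identity members over the 10 libraries, among 13327 with a mean of at least 1 CPM, included Pld4 (Pearson r = 0.964 with the members' mean z-score), Ctss (0.952), Blnk (0.950) and Cd37 (0.943). For the activation and phagocyte members they included Rab3il1 (0.989), Sipa1 (0.987), Nlrp3 (0.981), Cd83 (0.981) and Ifngr1 (0.977). These r values describe 10 libraries that fall into an OL and an OPC set and share medium and time within each set, so they carry no test.

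Promoter sequences were at hand in RefSeq for 6 of the 10 members (250 bases before to 50 after the start). Those of Cx3cr1 and Trem2, which rose in OPC anti-miR-145, and of Itgam and Lyz2, which fell, are shown because the members moved apart. Capitals mark matches, on either strand, to AGGAAGT, a core of the ETS family to which PU.1 belongs, and to TTGCNNAA, a relaxed form of the C/EBP motif. The motifs were chosen after the promoters had been seen. Coordinates are GRCr8 and each sequence reads 5′ to 3′ along the gene.
Cx3cr1, chr8:128677017-128677316, minus strand: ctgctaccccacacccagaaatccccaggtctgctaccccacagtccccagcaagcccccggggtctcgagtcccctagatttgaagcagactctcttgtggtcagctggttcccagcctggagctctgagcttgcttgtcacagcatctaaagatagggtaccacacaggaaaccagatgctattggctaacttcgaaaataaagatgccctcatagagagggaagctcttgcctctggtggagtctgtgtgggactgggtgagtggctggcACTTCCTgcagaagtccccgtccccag
Trem2, chr9:20151730-20152029, minus strand: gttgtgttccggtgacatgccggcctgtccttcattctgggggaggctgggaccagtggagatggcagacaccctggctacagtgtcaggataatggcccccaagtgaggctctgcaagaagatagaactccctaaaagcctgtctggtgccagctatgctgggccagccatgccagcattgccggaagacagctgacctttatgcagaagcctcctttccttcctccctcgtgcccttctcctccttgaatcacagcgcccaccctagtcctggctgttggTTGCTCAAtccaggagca
Itgam, chr1:192089342-192089641, plus strand: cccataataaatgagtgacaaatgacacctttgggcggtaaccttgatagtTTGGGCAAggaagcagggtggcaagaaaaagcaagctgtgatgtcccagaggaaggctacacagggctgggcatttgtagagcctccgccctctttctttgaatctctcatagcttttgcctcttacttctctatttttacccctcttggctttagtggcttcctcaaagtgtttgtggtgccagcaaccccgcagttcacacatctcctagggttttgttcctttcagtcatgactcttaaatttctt
Lyz2, chr7:54797962-54798261, minus strand: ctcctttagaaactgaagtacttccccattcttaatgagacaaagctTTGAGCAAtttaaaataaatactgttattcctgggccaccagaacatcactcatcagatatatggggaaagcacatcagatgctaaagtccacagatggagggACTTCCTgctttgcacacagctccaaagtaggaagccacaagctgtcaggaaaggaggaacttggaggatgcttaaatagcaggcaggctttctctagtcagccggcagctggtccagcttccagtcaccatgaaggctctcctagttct

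The ETS core was found in 2 of 6 members (Cx3cr1 and Lyz2) and in 8.41% of 33469 RefSeq promoters of the same length. The C/EBP motif was found in 3 of 6 (Trem2, Itgam and Lyz2) and in 10.6% of promoters. Members that rose and members that fell thus held each of the first pair of motifs, and a match describes letters in this window and not a bound site.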

How the data were processed

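RNA of 10 libraries of primary rat cells was sequenced from stranded mRNA libraries. The authors assigned reads to GENCODE transcripts of Rnor6.0 with Salmon (0.12.0 in the submitters' processing notes), summed them per gene with tximport and deposited estimated counts, which are not normalized. These were rounded to whole numbers. The methods paragraph on RNAseq names lentivirus, whereas the results and labels name transfected mimics. The authors also deposited a DESeq2 table for OL miR-145 against OL miR-ctl, with fold changes and p-values, from which gene symbols alone were used.

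The 5 comparisons were each tested on their 4 libraries by edgeR's quasi-likelihood test (edgeR 4.0.16, R 4.3.3, TMM). A gene entered when 2 or more libraries held 5 counts or more, and it was called when its p, adjusted after Benjamini-Hochberg over all genes that entered, was under 0.05. Standard errors were obtained by dividing the size of the log2 value by the root of F. Replicates differed by more than sampling noise in each group (chi-square per degree of freedom 11.1 to 76.0). The functions were tested on simulated counts. Alternatives were DESeq2 1.42.0, DESeq2's size factors within edgeR, no filter or filterByExpr, all 5 groups in 1 fit, a replicate block, CPM by library totals and each library left out. Figures were drawn with matplotlib in Python.

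The members and lists were chosen with earlier results of these data known. From each list up to 3 genes called higher and 3 called lower with the smallest p were named, beside the members. The most abundant gene of a summed list, markers at 0 and genes that missed the filter were named as well, and the genes whose levels are given in each library were picked after their values were seen. The lists were microglial (identity, activation, other homeostatic, transcription factors, ligands, signalling, integrin and pan-leukocyte, lipid and injury), border macrophage, granulocyte and lymphocyte, proliferation, interferon, and OL, OPC, astrocyte, neuron, endothelial, and fibroblast and mural markers. List genes whose symbol was not matched were not analysed here.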

Additional observations from a re-analysis of the deposited data

How the results depend on the processing

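Calls in the OL mimic comparisons depended on the processing. For OL miR-145 compared with OL miR-ctl, 0 genes were called by edgeR, and DESeq2 called 649, of which 1 was a microglia gene, while all 5 groups in 1 fit called 79, none of them a microglia gene. For OL miR-145+miR-219 compared with OL miR-ctl, DESeq2 called 106 with 1 microglia gene, and the lack of a filter on low counts called 1 gene. For OL miR-145+miR-219 compared with OL miR-145, DESeq2 called 9 genes. The cause was not tested. For OPC anti-miR-145, all 5 groups in 1 fit, whose spread comes from all 10 libraries, called 2657 genes and 4 microglia genes in place of 4348 and 9.

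Replicate numbers recur across groups without being stated to mark shared cultures. Deviations of libraries with the same number correlated at 0.40, 0.47 and 0.63 over genes in the 3 OL comparisons, at -0.15 between the OPC groups and at 0.067 between control OLs and OPCs. With the replicate number as a block, the OL miR-145 comparison called 2272 of 15461 genes. Of these, 9 were microglia genes (8 higher and Lyz2 lower, with Tmem119 not called). For OL miR-145+miR-219 compared with OL miR-ctl, the block gave 132 of 15436 genes and 2 microglia genes (Cx3cr1 higher, Lyz2 lower). Compared with OL miR-145 it gave 184 of 15501 genes and 0 microglia genes. It changed no call of a microglia gene in the other 2 comparisons. Within replicate numbers, log2 differences of OL miR-145 from OL miR-ctl had 1 sign in both numbers for 9 of 10 members (Lyz2 -0.95 and -0.23), with Tmem119 the exception. For OL miR-145+miR-219 compared with OL miR-ctl, each member but Tmem119 also had 1 sign in both numbers (Lyz2 -1.40 and -1.04). For OL miR-145+miR-219 compared with OL miR-145, all 10 were negative in number 2 and 6 of 10 in number 1 (Tmem119, Csf1r, Trem2, Tyrobp, Lyz2 and Cd68).

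With each library left out, the inhibitor comparison called between 2348 and 7133 genes (2348 and 2407 without OPC anti-miR-ctl replicate 1 or 2, and 7133 without OPC anti-miR-145 replicate 2) and 7 to 10 microglia genes. The comparison of control OLs with control OPCs called between 4780 and 10306 genes (4842 and 4780 without OPC anti-miR-ctl replicate 1 or 2) and 7 or 8 microglia genes. A fit with a single library in a group assumes that it varies like the other group.

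Signs of uncalled log2 fold changes turned with single libraries left out. In OL miR-145 compared with OL miR-ctl, Lyz2 ranged from -1.50 to 0.18 and Tmem119 from -0.12 to 0.84. In OL miR-145+miR-219 compared with OL miR-ctl, Tmem119 ranged from -0.58 to 0.38 and Cd68 from -0.14 to 0.43. In OL miR-145+miR-219 compared with OL miR-145, Cx3cr1 ranged from -0.83 to 0.19, P2ry12 from -0.97 to 0.28, Tmem119 from -1.02 to 0.094, Csf1r from -0.93 to 0.37, Trem2 from -0.91 to 0.12, Tyrobp from -0.57 to 0.18, Aif1 from -0.71 to 0.23, Itgam from -1.22 to 0.47, Lyz2 from -1.53 to 0.35, and Cd68 from -1.16 to 0.11. Between the control groups Cd68 ranged from -0.50 to 0.012. No sign turned under DESeq2, its size factors, either other filter, the block or the fit of 5 groups. Scaling by library totals moved 7 of 50 group means of the members by more than 1 SD. P2ry12 had the lowest count of a member, 75 in OPC anti-miR-ctl replicate 2, and 2 libraries per group limit each comparison.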
